A study of Mus musculus with 30 samples.

Results

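The Kupffer cell and macrophage markers described here are 10 genes, Adgre1, Clec4f, Cd5l, Vsig4, Marco, Timd4, Csf1r, Cd68, Lyz2, and Cd163, chosen by symbol out of the 55335 genes in the liver count table of mice given CDDO-Me. The livers came from male mice, 7 to 10 weeks old, all on the albino C57BL/6J background, and were taken 24 hours after 1 oral dose of CDDO-Me at 30 µmol/kg or of its vehicle (DMSO, Cremophor-EL, and PBS). Wild-type mice were compared with C151S mice, homozygous for a Keap1 knock-in allele made by CRISPR-Cas9 that puts a serine in place of the sensor cysteine, and with Nrf2-knockout mice, giving 6 groups of 5 mice and 1 library per mouse. The wild-type mice were purchased and the mutant mice were bred from homozygous matings, so that genotype and source of the mice cannot be told apart. Both alleles are carried by every cell of the animal, macrophages and hepatocytes alike.

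Kupffer cells are the resident macrophages of the liver. They sit in the sinusoids, clear particles, microbes, and old red cells from portal blood, and are maintained by signals through the CSF1 receptor. CDDO-Me is an oleanane triterpenoid that modifies KEAP1, the adaptor that normally keeps the transcription factor NRF2 low. Among the markers, Adgre1 encodes F4/80 and Csf1r the receptor for CSF1 and IL-34. Clec4f (a galactose-binding lectin), Vsig4 (a complement receptor), Timd4 (a phosphatidylserine receptor), and Cd5l (a secreted scavenger receptor-like protein) are used as markers of resident Kupffer cells. Marco and Cd163 encode scavenger receptors, Cd68 a lysosomal glycoprotein of macrophages, and Lyz2 lysozyme, which monocytes and neutrophils also make.

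Each library held 23667068 to 42073169 counts on genes (median 33229925). All 10 markers passed the expression filter in every comparison, and the lowest count of any of them in any liver was 49, for Marco. Nqo1, a target gene of NRF2, averaged 64.3 ± 25.0 CPM (SD, n = 5, with CPM as the count scaled to the size of the library) in CDDO-Me-treated wild-type mice and between 1.96 and 7.20 CPM in the other 5 groups, and Nfe2l2, the gene knocked out, averaged 26.3 to 35.1 CPM in the Nrf2-knockout groups and 53.5 to 77.7 CPM in the others. The mutant libraries fall into a high and a low set by the clock gene Arntl, with 11 libraries, all of mutant mice, in the low set. The livers are whole tissue in which hepatocyte genes prevail, and in such bulk samples fewer cells of a type and less RNA per cell cannot be told apart.

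Upstream sequences of 3 markers are shown. Marco parted from the others between groups, and Timd4 and Cd5l moved with the rest from mouse to mouse within a group. Between groups Cd5l did not always go with the rest. From wild-type to Nrf2-knockout mice after CDDO-Me its log2 difference was -0.59 (not called), where 7 of the 10 markers had positive ones. Each is the 250 bases before the start of transcription in RefSeq (GRCm38.p6), written 5′ to 3′ on the strand of the gene. Marco lies on chromosome 1 (minus strand, chr1:120505025-120505274), Timd4 on chromosome 11 (plus strand, chr11:46810549-46810798), and Cd5l on chromosome 3 (plus strand, chr3:87357631-87357880). Capitals mark the match to a MAF element.
Marco: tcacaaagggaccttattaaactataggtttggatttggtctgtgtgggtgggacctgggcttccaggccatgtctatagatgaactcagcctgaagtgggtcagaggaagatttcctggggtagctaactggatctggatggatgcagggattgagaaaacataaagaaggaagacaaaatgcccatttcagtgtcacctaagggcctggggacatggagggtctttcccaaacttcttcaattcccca
Timd4: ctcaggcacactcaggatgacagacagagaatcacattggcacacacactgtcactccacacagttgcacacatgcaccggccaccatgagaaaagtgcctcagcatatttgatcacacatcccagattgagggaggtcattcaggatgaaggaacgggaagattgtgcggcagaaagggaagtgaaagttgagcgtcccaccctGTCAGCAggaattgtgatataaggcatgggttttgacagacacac
Cd5l: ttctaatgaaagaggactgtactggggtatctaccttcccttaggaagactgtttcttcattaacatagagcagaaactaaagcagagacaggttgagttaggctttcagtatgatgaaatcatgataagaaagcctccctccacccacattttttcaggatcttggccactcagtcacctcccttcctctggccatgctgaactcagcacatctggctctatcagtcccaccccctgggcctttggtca
Both strands were searched for the PU.1 core GAGGAAGT, the antioxidant response element core TGACNNNGC, and the MAF element TGCTGAC, which 2.44%, 10.2%, and 3.81% of 32851 RefSeq promoters of the same length hold. PU.1 is a transcription factor of the macrophage lineage, and NRF2 binds antioxidant response elements. Of the 8 markers with a promoter in the table (Adgre1 and Csf1r have no entry), Timd4 held 1 MAF element, 45 bases upstream, and Clec4f held 1 antioxidant response element core, 61 bases upstream. In Marco, Cd5l, Cd163, Lyz2, Cd68, and Vsig4 none of the 3 sets of letters occurs in this window.

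The markers spanned more than an order of magnitude in level. Cd5l, Lyz2, and Clec4f were the most abundant, with medians over the 30 livers of 32.6, 28.6, and 27.6 CPM per kilobase of exon. Vsig4 followed at 12.9 CPM per kilobase, Csf1r at 5.92, Cd68 at 5.37, and Adgre1 at 3.45. Marco (2.87 CPM per kilobase), Timd4 (2.26), and Cd163 (1.85) were the lowest. The ranges over livers of every pair of neighbours in this order overlapped, as between Vsig4 (5.55 to 24.1) and Clec4f (15.5 to 47.7). From the lowest to the highest liver, CPM differed by 22.0-fold for Marco and 10.1-fold for Cd163, and by 2.72-fold (Lyz2) to 5.18-fold (Timd4) for the other 8 markers.

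**Figure D1:**
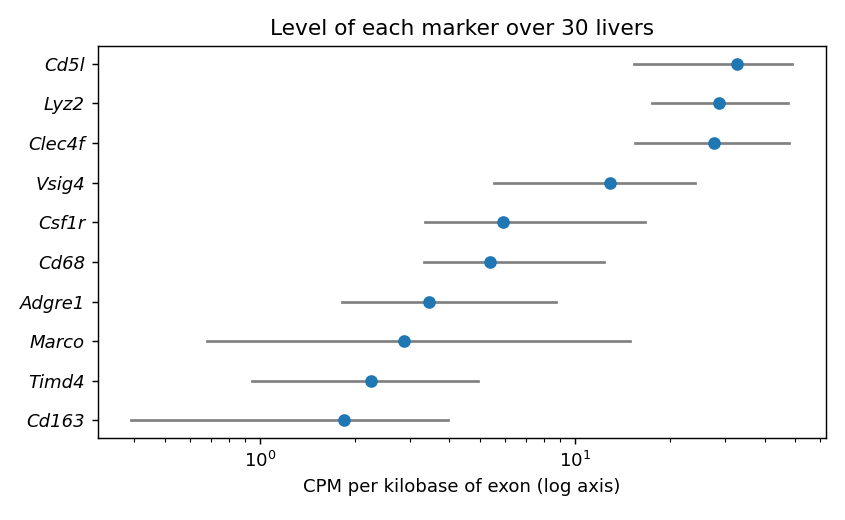
Level of each marker in CPM per kilobase of exon (log axis), with the median over 30 livers as a point and the range from the lowest to the highest liver as a line. Cd5l, Lyz2, and Clec4f lie highest, with medians from 27.6 to 32.6, and the line of Marco is the longest.

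Within a group, most markers tended to rise and fall together from mouse to mouse. In CDDO-Me-treated wild-type mice replicate 1 was lowest for 8 markers, but replicate 2 was highest for only 5. There Cd5l was 60.3, 79.3, 69.1, 91.2, and 95.6 CPM for replicates 1 to 5. Cd163 was 10.1, 13.0, 7.76, 10.1, and 6.76 CPM in the same livers. In CDDO-Me-treated C151S mice, replicate 2 had the highest value of all 10 markers and replicate 1 the lowest of 8. In vehicle-treated Nrf2-knockout mice, replicate 3 was highest for 8 markers and replicate 1 lowest for 9. Csf1r shows the size of these differences. In the vehicle-treated Nrf2-knockout mice it was 33.0, 48.2, 96.4, 72.0, and 41.5 CPM for replicates 1 to 5, and in the CDDO-Me-treated C151S mice 26.5, 79.1, 32.7, 34.4, and 37.9 CPM. One liver stood high in each of these groups, and the rest of the C151S mice lay within a narrow band. The median coefficient of variation of the 10 markers was 16.1% in CDDO-Me-treated wild-type mice and between 30.6% and 43.1% in the other 5 groups.

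The deviations from group means were compared between markers over the 30 livers, for 45 pairs of markers. Pearson's r ranged from 0.02 to 0.96 with a median of 0.871, and 44 of 45 pairs passed an adjusted p of 0.05 by Pearson's r and by Spearman's rho (permutation within groups, 2-sided, 100000 resamples). Adgre1 and Csf1r were the closest pair, with an r of 0.96 and a rho of 0.94, each with a permutation p of 1e-05, the smallest these permutations can give, and an adjusted p of 1.73e-05 and 2.05e-05, and the r was 0.95 without the 2 livers farthest from the median of Adgre1. Marco and Cd163 were the pair that did not pass, with an r of 0.02 (permutation p = 0.915) and a rho of 0.01 (permutation p = 0.954), and an r of -0.10 without the 2 farthest livers. The median r of Marco with the other 9 markers was 0.584 and that of Cd163 was 0.618. For the other 8 markers this median lay between 0.832 and 0.894. The livers share library and depth across genes, so that r among markers of 1 cell type carries these too.

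**Figure D2:**
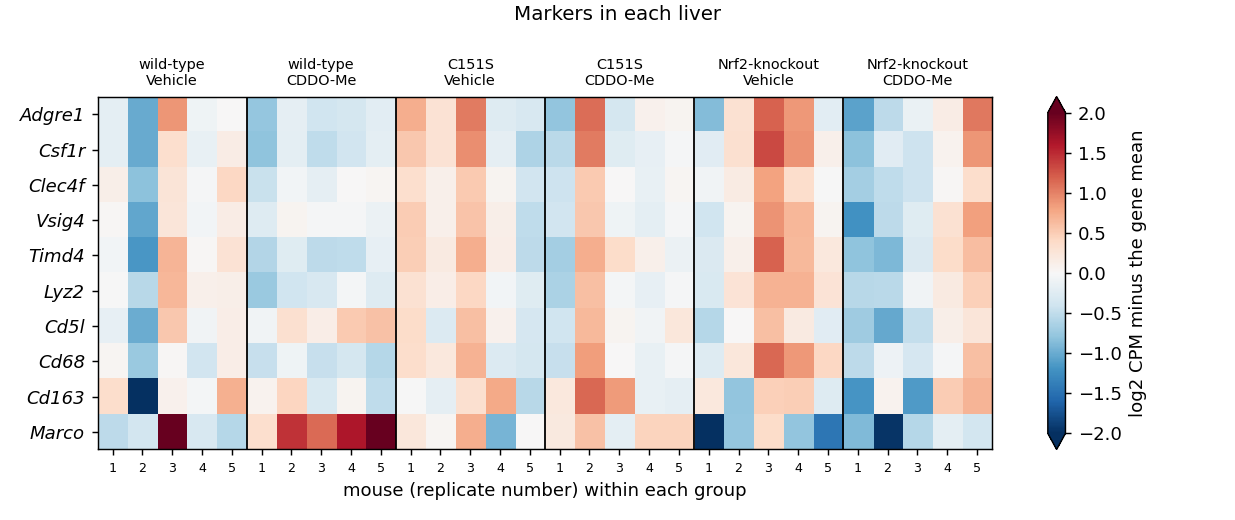
Log2 CPM of each marker in each of 30 livers, minus the mean of that marker, with mice in columns by group and colours stopping at 2 above and below the mean. Some columns hold 1 colour from top to bottom, as in CDDO-Me-treated C151S replicate 2, the highest of its group for all 10 markers. Others hold both colours, as in CDDO-Me-treated wild-type replicate 2 (Cd5l 0.32, Lyz2 -0.40). The row of Marco departs from the other rows.

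Genes outside the list that followed the mean of the 10 markers most closely over the 30 livers, among 15000 genes, were Ptgs1 (r = 0.94), Myo9a (0.93), Atp8a1 (0.92), Cd53 (0.92), and Tyrobp (0.91). Ptgs1 encodes cyclooxygenase 1, Cd53 is a tetraspanin of leukocytes, and Tyrobp encodes the adaptor DAP12 of myeloid receptors. These genes are also in the lists that follow: Ptgs1 with the other Kupffer cell genes, Cd53 with the pan-leukocyte genes, and Tyrobp with the CSF1 receptor axis. The mean of 20 phagocyte and lysosome genes followed the mean of the markers within groups with an r of 0.966, that of 18 other Kupffer cell genes with 0.954, that of 6 pan-leukocyte genes with 0.911, and that of 13 genes of the CSF1 receptor axis with 0.908. Spearman's rho for these 4 lists was 0.966, 0.946, 0.900, and 0.906. The 10 genes of liver sinusoidal endothelial cells, the neighbours of Kupffer cells, gave an r of 0.809 (rho 0.788). The r was lower for B cell (0.621), dendritic cell (0.576), monocyte and recruited macrophage (0.524), stellate cell (0.505), T and NK cell (0.496), and neutrophil genes (0.342). It was -0.03 for cholangiocyte, -0.34 for hepatocyte, and -0.42 for erythroid genes. These are descriptions over 30 livers without a test.

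Marco was the marker whose level differed most between the groups. In vehicle-treated wild-type mice it was 4.08, 4.56, 28.9, 4.71, and 3.95 CPM for replicates 1 to 5, with a median of 4.56 CPM. After CDDO-Me, wild-type mice had 7.47, 16.1, 13.0, 18.2, and 26.6 CPM. Thus 4 of the 5 vehicle-treated mice lay below every treated mouse, and replicate 3 lay above all of them. Nqo1 was 4.51 CPM in that library, the lowest of its group, and the same liver was the highest of its group for 7 of the 10 markers.

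In C151S mice Marco stayed within a narrow band. It was 6.88, 6.05, 9.75, 3.06, and 5.91 CPM after vehicle and 6.74, 8.83, 5.14, 8.02, and 8.004 CPM after CDDO-Me, so that the treated mice lay within the range of the vehicle-treated ones. Nrf2-knockout mice had the lowest levels, at 1.31, 3.42, 7.58, 3.37, and 2.12 CPM after vehicle and 3.16, 1.48, 3.95, 5.11, and 4.57 CPM after CDDO-Me. The ranges of the treated wild-type and the treated Nrf2-knockout mice did not overlap, since the lowest wild-type liver (7.47 CPM) lay above the highest Nrf2-knockout liver (5.11 CPM). The treated C151S mice lay between them: 3 of them lay above the lowest treated wild-type liver, all 5 lay below the other 4, and their lowest liver (5.14 CPM) was just above the highest Nrf2-knockout liver.

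**Figure D3:**
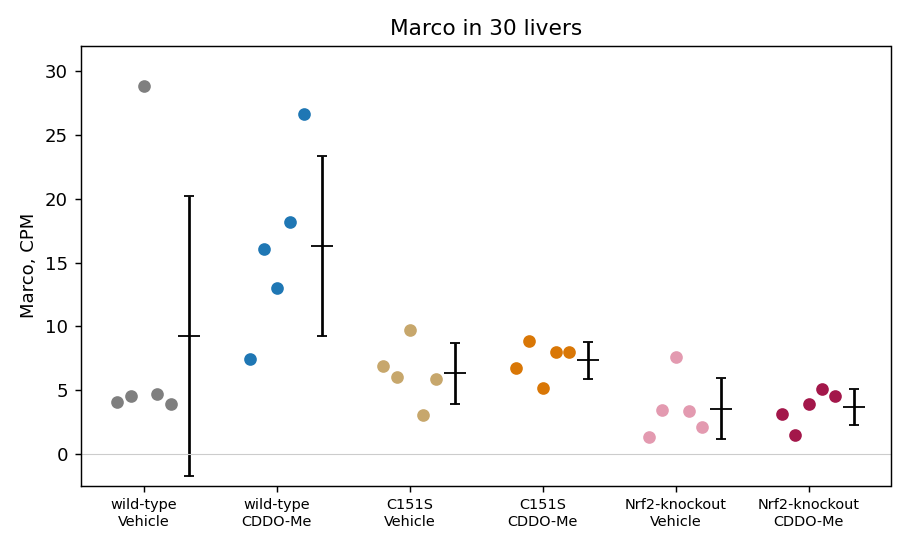
Marco in CPM in each of 30 livers by group, with 1 point per mouse and bars for the mean ± SD (n = 5). CDDO-Me-treated wild-type mice lie between 7.47 and 26.6 CPM, Nrf2-knockout mice between 1.31 and 7.58 CPM, and 1 vehicle-treated wild-type mouse stands at 28.9 CPM.

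Between CDDO-Me-treated mice, Marco was lower in Nrf2-knockout than in wild-type mice by a log2 difference of -2.14 (SE 0.36, adjusted p = 0.00256, edgeR's quasi-likelihood test), and it was the only marker called, 1 of 10, where 9.44% of all genes tested were called and 4.85% were called as lower. A call needed an adjusted p under 0.05 and a log2 difference of 0.5 or more in either direction. The difference stayed between -1.89 and -2.40, and called, under every alternative and with each mouse left out. The Nrf2-knockout mice of the low Arntl set (3 mice, 3.16 to 5.11 CPM) and of the high set (2 mice, 1.48 to 4.57 CPM) both lay below every treated wild-type mouse. Cd5l, the other marker with an unadjusted p under 0.05, had a log2 difference of -0.59 (SE 0.23, adjusted p = 0.118, edgeR). It averaged 79.1 ± 14.8 CPM in the wild-type and 51.7 ± 19.0 CPM in the Nrf2-knockout mice (SD with n = 5). Of 10 fits that each left out 1 mouse, 1 called it (adjusted p up to 0.221, edgeR). That fit left out replicate 5 of the treated Nrf2-knockout mice, the highest of its group (log2 difference -0.77, adjusted p = 0.0393, edgeR).

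Marco was also lower in C151S than in wild-type mice after CDDO-Me, by a log2 difference of -1.13 (SE 0.28, adjusted p = 0.0345, edgeR). It was again the 1 marker called of 10, where 5% of all genes tested were called and 2.8% as lower. This call sat at the threshold. It was lost without replicate 2, 3, or 4 of the treated wild-type mice (adjusted p = 0.0732, 0.0559, and 0.0752, edgeR) and without replicate 3, 4, or 5 of the treated C151S mice (0.0656, 0.0689, and 0.0689), with log2 differences from -1.03 to -1.21. It was also lost with the Arntl set as a covariate (-1.03, adjusted p = 0.198) and in 1 fit of all 30 libraries (-1.15, adjusted p = 0.137). Between C151S and Nrf2-knockout mice after CDDO-Me, Marco had a log2 difference of 1.01 that missed the threshold (adjusted p = 0.346, edgeR). No marker was called there (0 of 10, edgeR and DESeq2, 1 with an unadjusted p under 0.05, Marco), where 0.162% of genes were.

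CDDO-Me against vehicle in wild-type mice gave Marco a log2 difference of 0.79 (SE 0.55, adjusted p = 0.532, edgeR). The result turned on 1 library: without replicate 3 of the vehicle-treated wild-type mice it was 1.90 (adjusted p = 0.00497, edgeR) and called. No marker was called with all 10 libraries (0 of 10 by edgeR and by DESeq2, and 1 with an unadjusted p under 0.05, Lyz2), where 2.75% of genes were called. In C151S mice the log2 difference of Marco was 0.21 (adjusted p = 0.732, edgeR). The test of the difference between responses gave 0.59 for wild-type against C151S mice and 0.79 for wild-type against Nrf2-knockout mice, with adjusted p = 0.866 and 0.952. Without that vehicle library these were 1.70 (adjusted p = 0.359) and 1.90 (adjusted p = 0.257), and neither passed.

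Leaving out the same library also moved the comparisons of vehicle-treated mice. Marco had a log2 difference of -0.54 between C151S and wild-type mice (adjusted p = 0.584, edgeR), which turned to 0.57 (adjusted p = 0.230) without replicate 3 of the vehicle-treated wild-type mice. Between Nrf2-knockout and wild-type mice it was -1.35 (SE 0.64, adjusted p = 0.162, edgeR) and -0.24 (adjusted p = 0.719) without that mouse. Between C151S and Nrf2-knockout mice after vehicle, Marco had a log2 difference of 0.82 (adjusted p = 0.492, edgeR). A joint test of any difference among the 6 groups called Marco (adjusted p = 0.00579, edgeR) and none of the other 9 markers, where 28.9% of all genes tested were called.

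**Figure D4:**
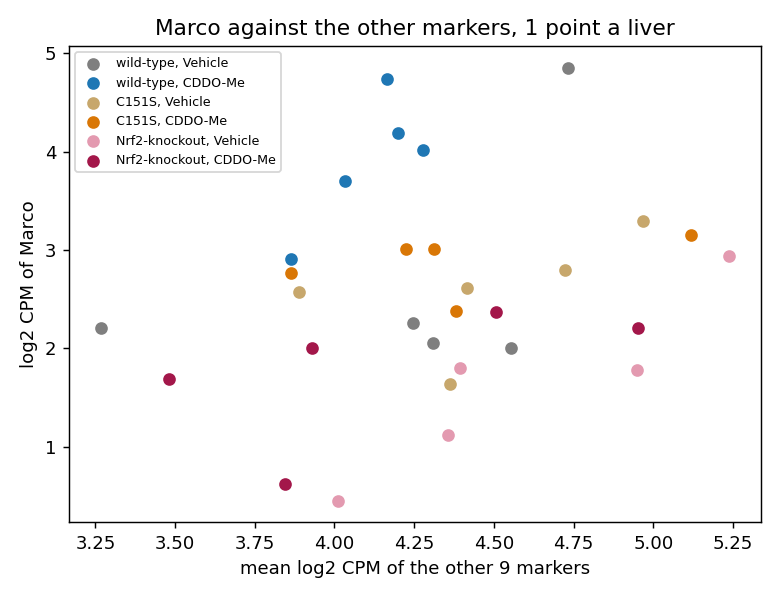
Log2 CPM of Marco against the mean log2 CPM of the other 9 markers, 1 point per liver, coloured by group. At a like level of the other markers, CDDO-Me-treated wild-type livers lie above Nrf2-knockout livers, with mean gaps between Marco and the other 9 of -0.20 and -2.37 in the CDDO-Me-treated mice.

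Set against the other 9 markers of the same liver, Marco was on average 0.20 log2 units below their mean in treated wild-type mice (-0.20 ± 0.55, SD, n = 5, range -0.95 to 0.57). The gap was -1.52 ± 0.43 in treated C151S mice and -2.37 ± 0.60 in treated Nrf2-knockout mice (SD with n = 5), the last ranging from -3.23 to -1.79. After vehicle it was -1.55 ± 1.09 in wild-type, -1.89 ± 0.52 in C151S, and -2.97 ± 0.51 in Nrf2-knockout mice (SD with n = 5). The difference in Marco between treated wild-type and treated Nrf2-knockout mice was thus present at like levels of the other markers. With the mean of the other 9 as a covariate, chosen after seeing the data, both comparisons of treated mutant with treated wild-type mice kept their call of Marco, with a log2 difference of -1.27 (adjusted p = 0.0328, edgeR) for C151S mice. Marco was also called under it between vehicle-treated Nrf2-knockout and wild-type mice (-1.91, adjusted p = 0.0394, edgeR). That fit held replicate 3 of the vehicle-treated wild-type mice. Summed over the 10 markers, expression ranged from 204 to 302 CPM in treated wild-type, 198 to 440 CPM in treated C151S, and 158 to 383 CPM in treated Nrf2-knockout mice.

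Genes whose levels followed that of Marco over the 30 livers, singled out after the values were seen, were Abcc3 (r = 0.75), Gsta1 (0.74), Gstm3 (0.73), Simc1 (0.73), and Fnbp1 (0.73), ranked among 15009 genes. Abcc3 encodes a drug and bilirubin exporter, and Gsta1 and Gstm3 encode glutathione S-transferases. Within groups, the r of these 5 genes with Marco was lower, between 0.29 and 0.51. Near-identical members of the glutathione S-transferase families share reads, so that their counts are uncertain.

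The other 9 markers gave no call in any of the 9 pairwise comparisons by edgeR. DESeq2 called 1 of them, Cd68, between vehicle-treated Nrf2-knockout and wild-type mice, where it called 1821 of 14030 genes. Cd68 was 7.25, 4.18, 7.11, 5.37, and 7.70 CPM in the vehicle-treated wild-type mice and 5.86, 8.23, 15.6, 12.8, and 9.33 CPM in the Nrf2-knockout mice. Replicate 1 of the Nrf2-knockout mice lay within the wild-type range and the other 4 above it. The log2 difference was 0.74 (SE 0.26, adjusted p = 0.0705, edgeR), or 0.89 (adjusted p = 0.0192) without replicate 1, and DESeq2 gave an adjusted p of 0.0278. This was the 1 call in 10 fits that each left out 1 mouse (adjusted p up to 0.175, edgeR). Csf1r had a log2 difference of 0.72 in the same comparison (SE 0.30, adjusted p = 0.121, edgeR). Of the 10 markers 0 were called by edgeR and 2 (Csf1r and Cd68) had an unadjusted p under 0.05, where 10.4% of all genes tested were called. Their median log2 difference was 0.35, with 9 positive and 1 negative, beside 0.01 over all genes tested. The markers come from the same livers and correlate within groups (median r 0.871). Here and below, their signs are therefore not separate observations.

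Between vehicle-treated C151S and wild-type mice, 9 of the 10 log2 differences were also positive, with a median of 0.19 beside 0.01 over all genes. Csf1r had 0.42 and Cd68 0.36, and 0 of 10 markers were called by edgeR or DESeq2, or had an unadjusted p under 0.05, where 4.84% of genes were called. With the Arntl set as a covariate, Csf1r (0.75, adjusted p = 0.0438) and Cd68 (0.62, adjusted p = 0.0311) were called by edgeR. Both comparisons share the vehicle-treated wild-type mice, in which replicate 2 was the lowest liver for 9 markers. Between vehicle-treated C151S and Nrf2-knockout mice, 0 of 10 markers were called or had an unadjusted p under 0.05 (edgeR, and 0 by DESeq2), where 0.349% of genes were called. Cd68 had a log2 difference of -0.38 there.

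After CDDO-Me, the markers other than Marco and Cd5l had positive log2 differences between C151S and wild-type mice, with the median of all 10 at 0.44 beside 0.03 over all genes. Timd4, the receptor that binds phosphatidylserine on dying cells, was 3.09, 3.93, 3.24, 3.28, and 4.18 CPM in the wild-type mice and 2.91, 7.78, 6.08, 5.06, and 4.31 CPM in the C151S mice. Only replicate 1 of the C151S mice lay below the wild-type range, and the other 4 lay above it. Its log2 difference was 0.58 (adjusted p = 0.147, edgeR), and 0.73 (adjusted p = 0.0293) without that mouse. This was the 1 call in 10 fits that each left out 1 mouse (adjusted p up to 0.285, edgeR). Adgre1 had a log2 difference of 0.57, Csf1r of 0.55, and Cd5l of -0.16. None of these 3 was called in the fit of all 10 libraries. Between treated Nrf2-knockout and wild-type mice the median of the 10 was 0.20, with 7 positive, and between treated C151S and Nrf2-knockout mice all 10 were positive with a median of 0.18, led after Marco by Cd163 (0.49) and Cd5l (0.43).

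**Figure D5:**
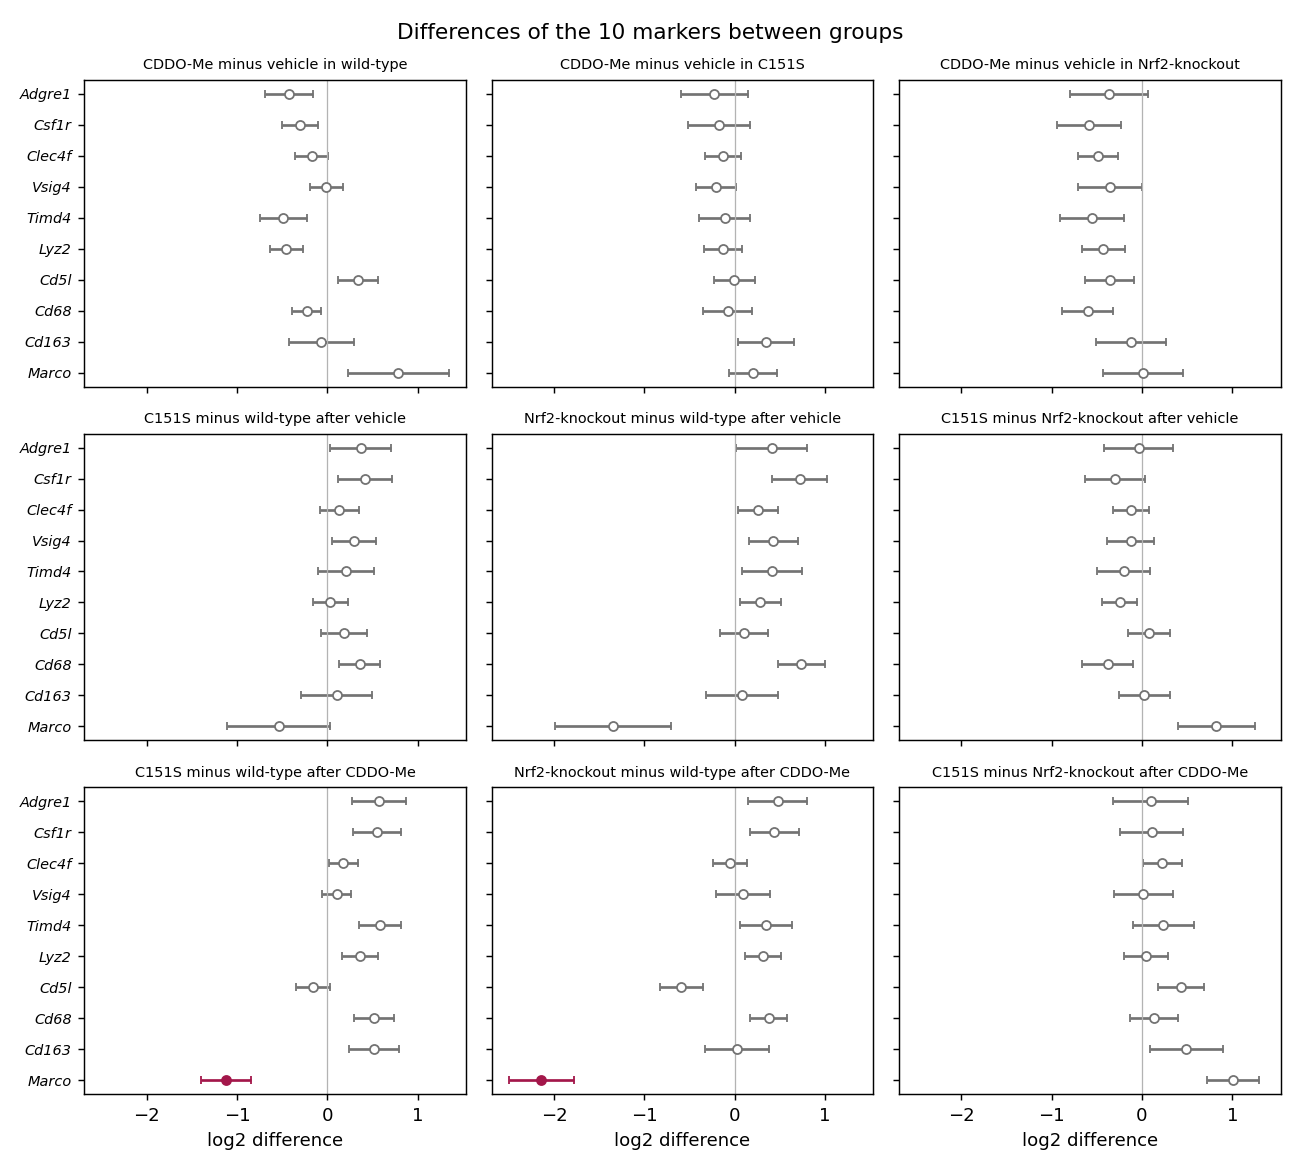
Log2 difference of each of the 10 markers in each of the 9 pairwise comparisons, with bars for the SE and filled points for calls by edgeR. The 2 filled points are Marco, at -2.14 and -1.13, in the comparisons of CDDO-Me-treated mutant with CDDO-Me-treated wild-type mice.

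Within a genotype, no marker was called after CDDO-Me, and most log2 differences were negative. In wild-type mice 8 of 10 were negative with a median of -0.20, led by Timd4 (-0.49) and Lyz2 (-0.46). Lyz2 was 38.0, 26.2, 60.8, 41.3, and 41.7 CPM after vehicle and 23.04, 29.1, 30.9, 37.4, and 32.1 CPM after CDDO-Me. The groups overlapped through replicate 2 of the vehicle-treated mice, without which Timd4 (-0.68, adjusted p = 0.0352) and Lyz2 (-0.58, adjusted p = 0.0450) were called by edgeR. For each gene this was the 1 call in 10 fits that each left out 1 mouse. In these fits the adjusted p reached 0.705 for Timd4 and 0.473 for Lyz2 (edgeR). Cd5l had a positive log2 difference of 0.34. With the mean of the 9 markers other than Marco as a covariate, a mean that holds Cd5l itself, it was 0.52 (adjusted p = 0.00774, edgeR). This setting was again chosen after seeing the data.

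In C151S mice, 8 of 10 log2 differences were negative with a median of -0.12, and Cd163 had 0.35. Of the 10 markers 0 were called by edgeR or DESeq2 and 0 had an unadjusted p under 0.05, where 0.092% of genes were called. In Nrf2-knockout mice 9 of 10 were negative with a median of -0.40 beside -0.01 over all genes tested, led by Cd68 (-0.60), Csf1r (-0.59), and Timd4 (-0.56). Again 0 of 10 markers were called by edgeR or DESeq2 and 0 had an unadjusted p under 0.05, and 0% of all genes tested were called by edgeR (1136 genes had an unadjusted p under 0.05, and DESeq2 called 55). The SE of these differences in Nrf2-knockout mice was 0.28 for Cd68 and 0.35 for Csf1r. No marker passed the test of a difference between responses of any 2 genotypes (0 of 10 in each, by edgeR and DESeq2, and 0 with an unadjusted p under 0.05), where 0.48%, 0.266%, and 0.0133% of genes passed for wild-type against C151S, wild-type against Nrf2-knockout, and C151S against Nrf2-knockout mice.

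Among the 18 other Kupffer cell genes, Slc40a1 was called in 2 comparisons. It encodes ferroportin, the iron exporter, which hepatocytes and endothelial cells express as well. It was 114, 85.0, 146, 112, and 115 CPM in vehicle-treated and 144, 170, 206, 231, and 210 CPM in CDDO-Me-treated wild-type mice. Only the highest vehicle-treated and the lowest treated liver overlapped. The log2 difference was 0.74 (SE 0.15, adjusted p = 0.0122, edgeR), and between treated Nrf2-knockout and wild-type mice it was -0.86 (SE 0.16, adjusted p = 0.00587, edgeR). Both calls held with each mouse left out. In the second comparison Slc40a1 was the 1 gene called of 18, where 9.44% of all genes tested were called.

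In wild-type mice 3 of the 18 genes were called after CDDO-Me, where 2.75% of all genes tested were called. Beside Slc40a1 these were Id3, an inhibitor of DNA binding that Kupffer cells require, at 1.12 (adjusted p = 0.0315, edgeR) and C6, a complement component that hepatocytes also make, at -0.59 (adjusted p = 0.0256, edgeR). Id3 lost its call without any 1 of 6 mice (adjusted p up to 0.0901) and C6 without any 1 of 5 (up to 0.0685). Neither was called in the fit of all 30 libraries (adjusted p = 0.113 for Id3 and 0.236 for C6, edgeR). The chemokine gene Ccl24 was lower in treated C151S than in treated wild-type mice (log2 difference -0.81, SE 0.19, adjusted p = 0.0301, edgeR). It was the 1 gene called of 18 there, where 5% of all genes tested were called. The call was lost without any 1 of 5 mice (up to 0.0770) and with the Arntl set as a covariate (0.116). In each of the other 6 pairwise comparisons 0 of 18 were called by edgeR, where 0% to 10.4% of all genes tested were called. Of the 18, 0 to 5 had an unadjusted p under 0.05, and DESeq2 called 0 or 1, beside 55 to 1821 of all genes.

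The 13 genes of the CSF1 receptor axis hold its ligands, adaptors, and lineage transcription factors. Between vehicle-treated mice edgeR called 2 of 13 for C151S against wild-type, where 4.84% of all genes tested were called, 4 of 13 for Nrf2-knockout against wild-type, where 10.4% were called, and 0 of 13 for C151S against Nrf2-knockout, beside 0.349% over all genes. In the last of these DESeq2 also called 0, and the unadjusted p was under 0.05 for 2 genes. Il34, the second ligand of the CSF1 receptor, was 1.10, 0.823, 0.944, 0.848, and 0.918 CPM in vehicle-treated wild-type and 2.11, 2.53, 2.76, 3.83, and 2.16 CPM in vehicle-treated Nrf2-knockout mice. The groups did not overlap, and the log2 difference was 1.55 (SE 0.21, adjusted p = 0.00108, edgeR), called with each mouse left out. The difference was 0.90 (adjusted p = 0.0260, edgeR) between vehicle-treated C151S and wild-type mice and 1.01 (adjusted p = 0.0189) between treated Nrf2-knockout and wild-type mice. The first of these lost its call without replicate 3, 4, or 5 of the vehicle-treated wild-type or replicate 2 of the C151S mice (adjusted p = 0.0579 to 0.0695), and the second without replicate 1 or 2 of the treated wild-type mice (0.0509 and 0.0507).

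The 4 genes called between vehicle-treated Nrf2-knockout and wild-type mice were all higher in the knockout. Beside Il34 they were Irf8, a myeloid transcription factor, at a log2 difference of 0.70 (adjusted p = 0.0211, edgeR), and Csf2ra and Inpp5d, both named after their values were seen, at 0.86 and 0.89. The calls of Irf8, Csf2ra, and Inpp5d were lost without any 1 of 2, 6, and 8 of the 10 mice, and each was lost with the Arntl set as a covariate (adjusted p = 0.0930, 0.135, and 0.105, edgeR). Csf2rb, the shared receptor chain for GM-CSF and IL-3, was higher in treated Nrf2-knockout than wild-type mice by 0.82 (SE 0.15, adjusted p = 0.00459, edgeR) with each mouse left out. Of the 20 phagocyte and lysosome genes, edgeR called C1qc alone in any pairwise comparison (0.51, adjusted p = 0.0490, treated C151S against treated wild-type mice, where 5% of all genes tested were called). DESeq2 called 2 of the 20 there, beside 1154 of 13844 genes. It called 3 between vehicle-treated Nrf2-knockout and wild-type mice, beside 1821 of 14030 genes. The edgeR call of C1qc was lost without any 1 of 8 mice and with upper-quartile normalization (adjusted p = 0.0551). It was also lost with no filter or a stricter filter on low counts (0.0531 and 0.0532) and in the fit of all 30 libraries (0.0996). With the mean of the 9 markers other than Marco as a covariate it was lost as well (0.0726).

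Markers of other cells moved in the comparison of vehicle-treated Nrf2-knockout with wild-type mice, in which 9 of the 10 macrophage markers had positive log2 differences. Over all genes tested 10.4% were called in this comparison, in either direction. Of 10 liver sinusoidal endothelial cell genes, 5 were called, all higher in the knockout, among them Pecam1 (0.69, SE 0.13, adjusted p = 0.00561, edgeR), Stab1 (0.77, adjusted p = 0.00660), and Stab2 (0.78, adjusted p = 0.00998), and each of these 3 calls held with each mouse left out. The summed level of the 10 genes was 284 to 363 CPM in vehicle-treated wild-type and 357 to 578 CPM in vehicle-treated Nrf2-knockout mice. Of 12 monocyte and recruited macrophage genes 10 were tested and 3 were called as higher. Itgax, the integrin CD11c, was at 1.49 (SE 0.35, adjusted p = 0.0157, edgeR), beside Plac8 (0.66) and Ly6c2 (0.99). The call of Ly6c2 was lost without any 1 of 7 mice and with DESeq2 (adjusted p = 0.0599). That of Plac8 was lost with the replicate number as a block (0.0534, edgeR) and with the Arntl set as a covariate (0.0752, edgeR). Their summed level was 19.1 to 27.1 CPM in the wild-type and 23.8 to 45.5 CPM in the knockout mice, and 1 of the 12 genes had 3 counts or fewer in every library of each group.

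Of the genes that could be tested in the same comparison, beside the 10.4% called over all genes, 3 of 10 stellate cell, 3 of 6 dendritic cell, 2 of 3 neutrophil, 1 of 7 T and NK cell, and 1 of 6 B cell genes were called as higher and 3 of 5 erythroid genes as lower. The filter on low counts left out 2 of 8 dendritic cell, 9 of 12 neutrophil, 3 of 10 T and NK cell, and 1 of 6 erythroid genes. Of 5 cholangiocyte and 10 hepatocyte genes tested 0 were called by edgeR or DESeq2, with 0 and 3 at an unadjusted p under 0.05. Of the 6 pan-leukocyte genes, Coro1a was called as higher (0.70) and Lcp1 as lower (-0.56). The call of Coro1a was lost without any 1 of 4 mice (adjusted p up to 0.0593, edgeR). It was also lost with the mean of the 9 markers other than Marco as a covariate (0.0616). Lcp1 was also lower in treated Nrf2-knockout than in treated wild-type mice by a log2 difference of -0.89 (SE 0.11, adjusted p = 4.12e-04, edgeR), and none of the other 5 pan-leukocyte genes was called as lower there. With upper-quartile normalization its difference after vehicle was -0.47 and not called. Neutrophil genes were scarce: their summed level was 1.56 to 22.4 CPM over the 30 livers, and from 1 to 6 of the 12 had 3 counts or fewer in every library of a group. The part of these other cells in the differences of the macrophage markers was not tested.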

How the data were processed

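Liver RNA of 30 mice was sequenced as stranded, paired-end mRNA libraries. The authors checked read quality with fastp, without removing reads or bases, aligned the reads to mm10 with STAR 2.7.7, and deposited raw counts per gene (GENCODE M23) without normalization. The 4 summary lines were left out, which held 19.4% to 34.1% of reads, and 0 columns were left unused. Symbols came from GENCODE M21 (GRCm38) for 55154 of 55335 genes. Only reads with 1 position were counted, and intervals or floors (3 counts) cover counting error only.

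Groups came from the genotype and treatment labels. Each pairwise comparison used its own 10 libraries with edgeR 4.0.16 in R 4.3.3 (filterByExpr, TMM, legacy quasi-likelihood F-test), with Benjamini-Hochberg adjustment over all genes tested. Differences between responses and the joint test used 1 fit of all 30 libraries at a false discovery rate of 0.05. The SE is the log2 difference divided by the square root of F, and a prior count of 2 was added for log2 CPM. Replicates are separate mice.

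The members and lists were chosen with earlier results of these data known. Named genes are the 10 members, up to 4 called genes per list with the lowest p, the 5 genes most like the member mean, and Nqo1, Nfe2l2, Keap1, and Arntl. Of the listed genes, 1 is not reported here. Promoters are from RefSeq. The fits were tested on simulated data. Alternatives were DESeq2 1.42.0, upper-quartile normalization, the newer edgeR fit, other filters, no size threshold, and the replicate number as a block. Others were the Arntl set as a covariate, 1 fit of 30 libraries, and each mouse left out. Added after seeing the data was a covariate, the mean of the 9 members other than Marco. It was the same for every gene, those 9 members included. The dates of isolation, a covariate of the study, were not used here.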

Additional observations from a re-analysis of the deposited data

Results flagged for a closer look

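Among 60 sets of 5 mice (10 markers in 6 groups), 3 held a mouse far from the other 4 by the ratio of its gap to the whole range on the log2 scale, against a critical value of 0.71. Chance flags about 1 in 20 such sets. All 3 lay in vehicle-treated wild-type mice. For Marco, replicate 3 was the highest, with a ratio of 0.913 (28.9 CPM, the others 3.95 to 4.71 CPM). For Vsig4, replicate 2 was the lowest with a ratio of 0.772 (9.30 CPM, the others 18.6 to 22.8 CPM), and for Cd163 replicate 2 was the lowest with 0.737 (2.13 CPM, the others 9.36 to 15.8 CPM).

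The response of Ccl24, an eosinophil chemokine listed with other Kupffer cell genes, differed between wild-type and Nrf2-knockout mice by a log2 difference of 1.68 (SE 0.36, adjusted p = 0.0263, edgeR). In wild-type mice it averaged 1.38 ± 0.320 CPM after vehicle and 2.21 ± 0.510 CPM after CDDO-Me. In the knockout it averaged 2.14 ± 0.481 and 1.07 ± 0.528 CPM (SD with n = 5). The call was lost without any 1 of 10 libraries (adjusted p = 0.0501 to 0.0726) and with the replicate number as a block (1.76, adjusted p = 0.0713). These were replicates 2, 3, and 4 of the vehicle-treated and 2, 3, and 5 of the CDDO-Me-treated wild-type mice, and replicates 3 and 5 of the vehicle-treated and 2 and 3 of the CDDO-Me-treated Nrf2-knockout mice.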

How the results depend on the processing

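The number of markers called stayed within 1.5 times its value in 105 of 117 settings other than leaving out a mouse. In wild-type mice after CDDO-Me it went from 0 to 1 with the mean of the 9 markers other than Marco as a covariate. The marker called there was Cd5l, which is itself part of that mean. The number went from 0 to 2 over the fits without 1 mouse. Between vehicle-treated C151S and wild-type mice it was 2 with the Arntl set as a covariate. Between vehicle-treated Nrf2-knockout and wild-type mice it was 1 with DESeq2 (Cd68), 1 with the replicate block (Marco), and 1 with the same mean of 9 markers (Marco). It was 0 to 1 without 1 mouse. Between CDDO-Me-treated C151S and wild-type mice it was 0 in the fit of all 30 libraries and 0 with the Arntl set, and 0 to 2 without 1 mouse. Between CDDO-Me-treated Nrf2-knockout and wild-type mice it was 2 with the replicate block and 2, Cd5l again among them, with the same mean of 9 markers. It was 1 to 2 without 1 mouse. In the joint test it was 2 with DESeq2, 2 with upper-quartile normalization, 3 with the Arntl set, and 1 to 2 without 1 mouse.

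Of the single log2 differences given, 2 changed sign. Marco between vehicle-treated C151S and wild-type mice was 0.57 without replicate 3 of the vehicle-treated wild-type mice (range on leaving out each mouse -0.76 to 0.57), and Adgre1 in C151S mice after CDDO-Me was 0.0025 without replicate 3 of the vehicle-treated C151S mice, beside -0.22 with all (range -0.62 to 0.0025). In other settings 35 lost and 10 gained a call, and on leaving out a mouse 87 lost and 6 gained one.

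Replicate numbers were not taken to pair the mice. The mean correlation of same-numbered deviations over 2000 genes ranged from -0.21 to 0.18 between comparisons, and in none did every pair exceed 0.1. Between CDDO-Me-treated C151S and wild-type mice 4 of 5 pairs did (mean 0.168), and 3 of 5 did in Nrf2-knockout mice after CDDO-Me against vehicle (mean 0.181). Whether numbers are shared in part was not tested. With the replicate block, Marco was called between vehicle-treated Nrf2-knockout and wild-type mice (-1.06, adjusted p = 0.0333, edgeR), as was Cd5l between the CDDO-Me-treated ones (-0.65, adjusted p = 0.0325). Under it Id3 in wild-type mice after CDDO-Me was not called (1.14, adjusted p = 0.103). The Arntl covariate could not be fitted in wild-type mice, which lie in 1 set. In pairwise fits of mutant against wild-type mice it leaves the difference to the mutant mice of the high set. Markers such as Marco and Timd4, at 49 and 60 counts in their lowest liver, carry more counting error than Clec4f or Cd5l. The cause of these changes was not tested.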
